A study of Homo sapiens with 4 samples.

Results

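The proteins that build box C/D and box H/ACA small nucleolar ribonucleoproteins (snoRNPs), with nucleolin and nucleophosmin, were followed across 4 RNA-seq libraries of HEK-293 cells, an established line from human embryonic kidney. The 10 genes were taken by name from a table of 24934 gene rows. They are the C/D core genes FBL, NOP56, NOP58 and NHP2L1, the H/ACA core genes DKC1, NHP2, NOP10 and GAR1, and the nucleolar genes NCL and NPM1. All 10 were present, each on 1 row, and all 10 were at 1 FPKM or more in every library. FPKM counts fragments per kilobase of transcript, normalised to library depth.

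The groups were cells given siRNA against ZSCAN5A (2 libraries, from the independent designs si4 and si5), siRNA against ZSCAN5B (1 library, si1) and a scrambled siRNA (1 control library). Each siRNA was used at 10 nM, and cells were harvested 48 h after transfection with Lipofectamine. ZSCAN5A and ZSCAN5B are zinc finger transcription factors, and the question was which genes depend on each of them. With 1 library per siRNA, no value below has a replicate check, and a difference in RNA per cell cannot be told apart from a difference in the mix of cells.

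A snoRNP is a short guide RNA held by 4 core proteins. Guides of the C/D type direct the methylation of ribose in ribosomal RNA, and guides of the H/ACA type direct the conversion of uridine to pseudouridine. Both take place in the nucleolus, where ribosomes are made, and dividing cells such as HEK-293 use them heavily. Most human guides are cut from introns, and several of these introns belong to genes for the core proteins themselves.

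The siRNA target sites were in coding exons of the 2 targeted genes on the minus strand of chromosome 19 (hg19). They are shown because they define the 3 treatments. The si4 and si5 sites lie in exon 6 of 6 of ZSCAN5A, at chr19:56733332-56733352 and chr19:56733307-56733327. The si1 site lies in exon 5 of 5 of ZSCAN5B, at chr19:56701591-56701611.
si4: cgagaagaggtttacgtgtaa
si5: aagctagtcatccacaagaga
si1: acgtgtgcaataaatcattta

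The level of ZSCAN5A was 2.42 FPKM in the control and 2.53 with si1, and 0.730 and 0.713 with si4 and si5, so both ZSCAN5A siRNA libraries were at about 30% of the control (30.2% and 29.5%). In the paper's qRT-PCR the related gene ZSCAN5D was also below its control with si4, si5 and si1. The level of ZSCAN5B was 0.0331 and 0.0663 FPKM with si4 and si5, 0.0948 with si1 and 0.0903 in the control. With si4 its FPKM ratio to the control was 0.366, on an estimated 6 fragments against 15, with a 95% counting interval of 0.116 to 0.999. With si5 the ratio was 0.734 (0.345 to 1.58). By qRT-PCR the paper found less ZSCAN5B with si1 and some excess of it with si4. By Western blot it also found less ZSCAN5B protein after siRNA against that gene. In these libraries ZSCAN5B was not lower with si1 than in the control, at an estimated 16 fragments against 15. That FPKM ratio was 1.05, with a 95% counting interval of 0.486 to 2.28. The si1 sample is therefore called the library labelled ZSCAN5B knockdown. All 7 HEK-293 markers were detected. VIM (270 to 359 FPKM), KRT8 (148 to 199), KRT18 (70.4 to 86.2), NEFL (37.0 to 45.2) and NEFM (8.46 to 11.4) had controls within or at the low end of these ranges, while LHX1 (3.28 to 3.31 FPKM with the siRNAs, 4.17 in the control) and PAX2 (0.584 to 0.615, 1.16 in the control) were lower in all 3 siRNA libraries. The markers of leukocytes, hepatocytes, fibroblasts and endothelium summed to 1.16 to 1.89 FPKM per library, nearly all of it COL1A1, and APOB was listed at 0 throughout. Relative to the control, the estimated depth of sequencing was 1.09 for si4, 1.54 for si5 and 1.02 for si1. The paper states a narrower range of reads per sample, and the difference was not resolved. The counting intervals rest on the estimated depths. The widest of them for the 10 genes was that of GAR1 with si1, a ratio of 1.19 to 1.40.

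Levels of the 10 genes spanned 19.0 FPKM for GAR1 to 862 FPKM for NPM1 in the control. In every library NPM1, FBL, NCL and NHP2 were the highest, in that order, and GAR1 was the lowest. The ranges over the 4 libraries of NHP2 and NOP56, of NOP56 and NOP10, and of DKC1 and NOP58 overlapped. Within each library NHP2 was above NOP56. NOP56 was above NOP10 except with si1, and NOP58 was above DKC1 except in the control. The other 6 neighbouring pairs did not overlap. FPKM is a level per transcript length, and so the levels of these genes can be set side by side, although NPM1, NOP56, NHP2 and NCL have 49, 3, 2 and 2 annotated pseudogenes named after them, with which reads may be shared.

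**Figure D1:**
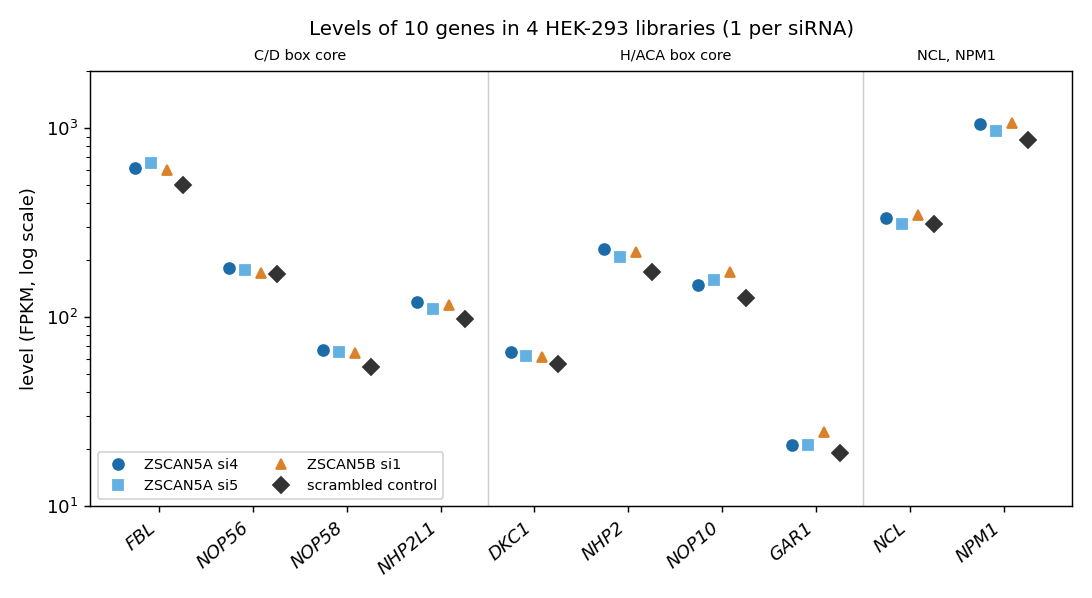
Level of each gene in FPKM on a log axis, with 1 point per library for ZSCAN5A si4 and si5, ZSCAN5B si1 and the scrambled control. The control is the lowest of the 4 points for all 10 genes, and GAR1 sits below 25 FPKM while NPM1 reaches 1059.

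All 10 genes were higher than in the control in each of the 3 siRNA libraries, at 100% to 137% of its level. Over all genes tested, 30.1% were higher in all 3, and among genes at 50 FPKM or more in every library, where 9 of the 10 fall, 66.4% were. No gene of the 10 passed a 1.5-fold difference. Genes at 50 FPKM or more had a median ratio to the control of 1.12 in both the ZSCAN5A and the si1 comparison, beside 1.17 and 1.19 for the 10 genes.

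Among the C/D core genes, FBL (chr19:40325093-40337054, minus strand, 9 exons, hg19) encodes fibrillarin, the methyltransferase of the particle. Its level was 618 FPKM with si4, 655 with si5 and 598 with si1, against 499.5 in the control. The 3 siRNA libraries stood apart from the control by more than their own range, and averaged over both ZSCAN5A siRNAs it was 1.27 times the control, at percentile 96.1 of 12993 genes tested.

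NOP58 (chr2:203130515-203168384, plus strand, 15 exons) and NOP56 (chr20:2633178-2639039, plus strand, 12 exons) encode related scaffold proteins that bind fibrillarin, and each occurs in the particle with the other. The level of NOP58 was 67.4, 65.5 and 64.5 FPKM with si4, si5 and si1, and 54.6 in the control, with no overlap. The level of NOP56 was 182, 177 and 171 FPKM against 169.9. NOP56 was the closest of the C/D genes to the control, and with si1 the ratio of 1.01 had a counting interval of 0.987 to 1.03.

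NHP2L1 (also called SNU13, chr22:42069937-42084913, minus strand, 3 exons) encodes the small protein that first binds the folded box C/D RNA and is also part of the U4 splicing particle. It was at 121 FPKM with si4, 110.3 with si5 and 117 with si1, against 98.3 in the control. The gap to the control, 0.17 on the log2 scale at its smallest, was wider than the range of 0.13 among the siRNA libraries.

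Ratios between genes within a library do not depend on how libraries are scaled. The FPKM ratio of NOP56 to NOP58 was 2.71, 2.70 and 2.66 with si4, si5 and si1 and 3.11 in the control. The ratio of FBL to NOP56 was 3.39, 3.70 and 3.49 against 2.94. In both pairs, which share NOP56, the control lay outside the range of the siRNA libraries. The ratio of FBL to NOP58 was 9.18, 9.99 and 9.27 against 9.15, and for this pair the distance of si4 and si1 from the control was smaller than the spread among the siRNA libraries. The ratio of FBL to NHP2L1 was 5.12, 5.93 and 5.13 against 5.08. For NHP2 to GAR1 the control (9.06) lay inside the siRNA range (9.04 to 10.8), as for NHP2 to NOP10 (1.37, 1.29 to 1.55). For NHP2 to DKC1 (3.06) and NOP10 to DKC1 (2.23) it lay below that range, whose lowest values were 3.34 and 2.25.

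Among the H/ACA core genes, DKC1 (chrX:153991031-154005964, plus strand, 15 exons) encodes dyskerin, the pseudouridine synthase, which is also a subunit of telomerase. It was at 65.6, 62.4 and 61.9 FPKM with si4, si5 and si1, and 56.4 in the control. All 3 were above the control by more than their own range.

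NHP2 (chr5:177576465-177580961, minus strand, 4 exons), whose protein is related to NHP2L1 and binds the H/ACA RNA, was at 229, 209 and 222 FPKM against 172 in the control. With si4 it was at 133% of the control, the highest si4 ratio of the 10.

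NOP10 (chr15:34633917-34635362, minus strand, 2 exons) encodes a very small protein that links dyskerin to NHP2. It was at 148, 157 and 172 FPKM against 126. Its si1 library was at 137% of the control, the highest ratio of any of the 10 genes in any library, and lay above both ZSCAN5A libraries.

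GAR1 (chr4:110736666-110745893, plus strand, 7 exons) encodes the subunit that joins the mature particle and is needed for its activity. It was at 21.2 FPKM with si4, 21.0 with si5 and 24.6 with si1, against 19.0 in the control, on the fewest fragments of the 10 genes. The 2 ZSCAN5A libraries were close to the control (111% and 110% of it) and si1 was at 129%. Its siRNA libraries differed by more among themselves (0.23 on the log2 scale) than the nearest of them did from the control (0.14).

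NCL (chr2:232319459-232329205, minus strand, 14 exons) encodes nucleolin, an RNA-binding protein abundant in the nucleolus. NPM1 (chr5:170814708-170837888, plus strand, 11 exons) encodes nucleophosmin, a histone chaperone of its outer, granular layer. NPM1 was at 1054, 963 and 1059 FPKM with si4, si5 and si1, against 862. NCL was at 335, 312 and 346 FPKM against 311, and with si5 it was at 100% of the control, a ratio of 1.00 with a counting interval of 0.995 to 1.01. The FPKM ratio of NPM1 to NCL was 3.06 to 3.15 in the siRNA libraries and 2.77 in the control.

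**Figure D2:**
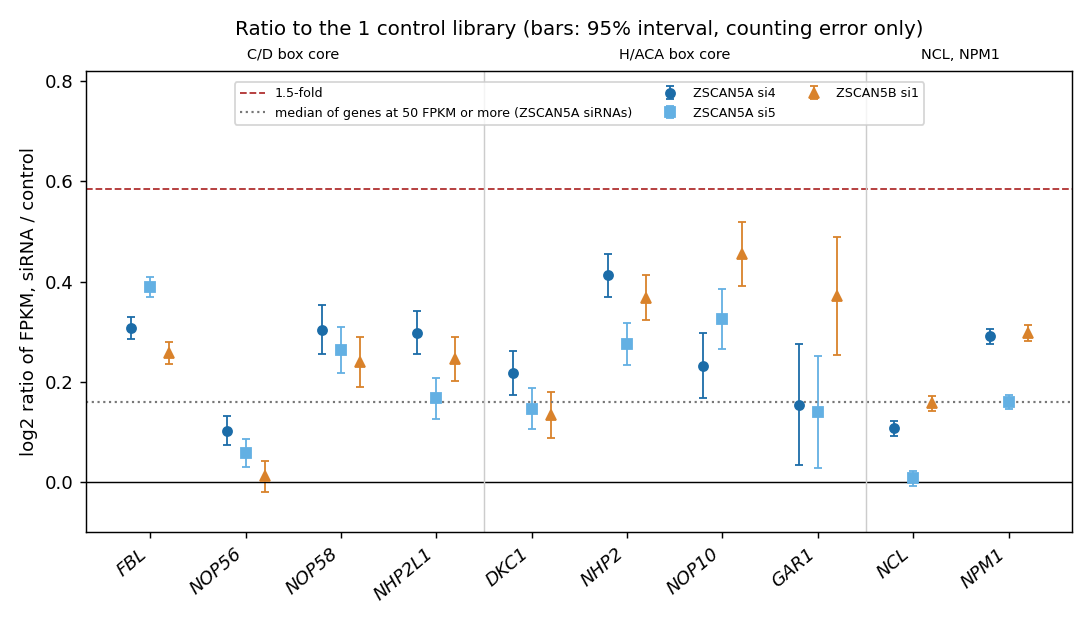
Log2 ratio of FPKM to the control library for each gene in ZSCAN5A si4, ZSCAN5A si5 and ZSCAN5B si1, with 95% intervals that cover counting error only. All 30 points lie above 0 and below the dashed line at 1.5-fold, and the dotted line is the median of genes at 50 FPKM or more with the ZSCAN5A siRNAs (0.16).

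In the ZSCAN5A comparison the FPKM values of both siRNAs were averaged and divided by that of the control. The median log2 ratio of the 10 genes was 0.23, a ratio of 1.17, and single genes ran from 0.058 for NCL to 0.35 for FBL. The median over all 12993 genes tested was -0.020. None of the 10 was past 1.5-fold, against 3.79% of all genes, and all 10 were higher at any size, against 46.7%.

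For the library labelled ZSCAN5B knockdown, the median of the 10 genes was 0.25, a ratio of 1.19, from 0.011 for NOP56 to 0.46 for NOP10, and the median over 12921 genes was -0.0097. None was past 1.5-fold, against 4.01% of all genes, and all 10 were higher, against 48.5%. Both comparisons use the same control library and are not independent.

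The comparison of the ZSCAN5A siRNAs with si1 uses no control library. Here 4 of the 10 were higher and 6 lower, from -0.22 for GAR1 to 0.091 for FBL, with a median of -0.017 beside -0.012 over all genes, and none was past 1.5-fold, against 1.31% of 12888 genes. The C/D genes had a median of 0.057 and the H/ACA genes -0.099, of which NOP10 and GAR1 gave -0.18 and -0.22.

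The 3 siRNA libraries were above the control by more than their own range for 7 of the 10 genes, the exceptions being NOP56, GAR1 and NCL. This held for 12.3% of all genes. It held for 36.6% of 1359 genes at 50 FPKM or more in every library, and for 7 of the 9 members among these.

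As an alternative, limma on log2(FPKM + 1), in which si4 against si5 is the only source of spread and the single libraries are assumed to vary alike, called none of the 10 in either comparison, with a smallest adjusted p of 0.385 for ZSCAN5A and 0.468 for si1. At an unadjusted p under 0.05 it gave 5 of 10 genes in each comparison, out of 1654 and 1386 of 13078 genes.

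The ratio to the control changed with expression level over all genes. In the ZSCAN5A comparison, the median log2 ratio went from -0.15 to 0.12 between the lowest and the highest of 5 equal bins of genes ordered by mean FPKM, and with si1 from -0.13 to 0.12. It also changed with transcript length, from 0.12 in the bin of shortest genes to -0.12 in the longest for ZSCAN5A and from 0.14 to -0.11 with si1. Of the 10 genes, 9 were at 50 FPKM or more in every library, the exception being GAR1. Their median transcript length was 1389 bases against 3342 over all genes, with NCL, at 3924, the one gene longer than that median. Genes at 50 FPKM or more had medians of 0.16 and 0.16, so the 10 genes exceeded them by 0.070 and 0.088.

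**Figure D3:**
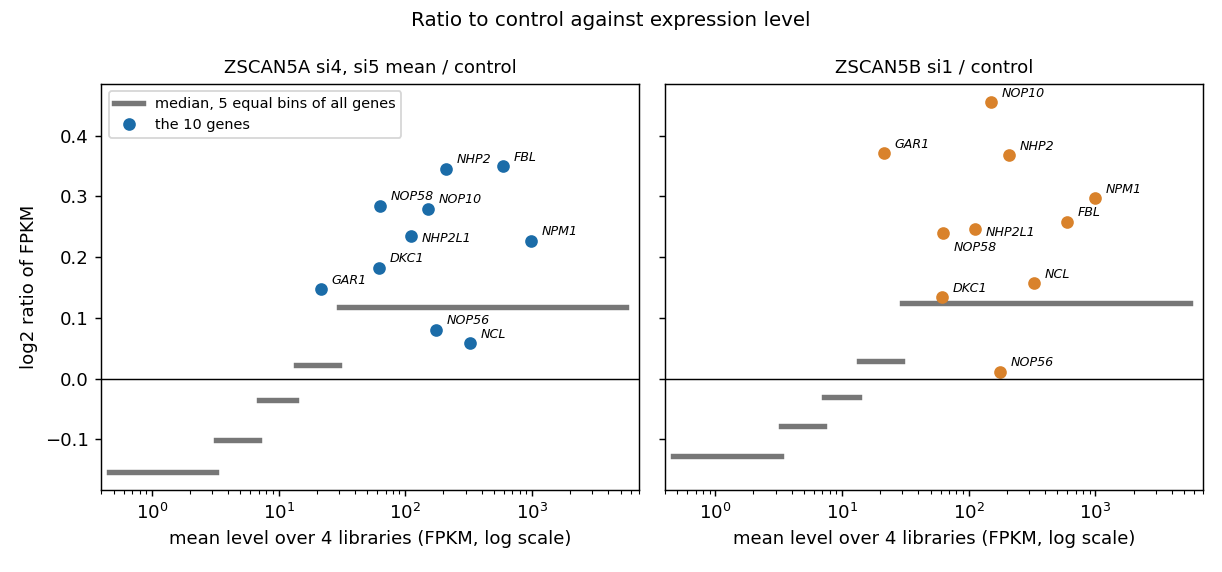
Log2 ratio of FPKM to the control against the mean level over 4 libraries in FPKM on a log axis, with the 10 genes as points and the median of each of 5 equal bins of all genes tested as a grey bar. The medians climb from -0.15 to 0.12 with the ZSCAN5A siRNAs (left) and from -0.13 to 0.12 with si1 (right), and NOP56 lies under the bar of the highest bin in both panels while NCL does so only on the left.

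With the median of genes of similar level removed, the median of the 10 genes was 0.062 for ZSCAN5A and 0.077 with si1, NOP56 and NCL were below 0 in both (-0.12 and -0.15, then -0.19 and -0.044), DKC1 was at -0.0096 with si1, and 5 of the 10 were higher in all 3 siRNA libraries, against 31.2% of all genes and 29.8% of those at 50 FPKM or more. With the median of genes of similar transcript length removed, the medians of the 10 genes were 0.13 and 0.17, and 8 of the 10 were higher in all 3, against 31.7% of all genes. For this setting no share was worked out among genes at 50 FPKM or more, and the trend by level remained in the values.

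The sum of all FPKM values was also lower in the control (488036) than in the siRNA libraries (537181 to 546239). The 10 genes made up 0.520%, 0.506% and 0.528% of that sum with si4, si5 and si1 and 0.485% in the control. With all libraries scaled to an equal sum, a setting added after the data had been seen, 6 of the 10 were higher in all 3 siRNA libraries, against 11% of all genes and 33.8% of those at 50 FPKM or more. The medians were then 0.076 and 0.11, and NOP56, GAR1 and NCL for ZSCAN5A and NOP56 and DKC1 with si1 were below 0. This scaling lowers the ratios of all genes alike, with medians of -0.18 and -0.15, and by construction leaves the distance of the 10 genes from other genes as it was. The number with a gap over the control larger than the siRNA range was then 2 of the 10, against 3.44% of all genes. For this count no share was worked out among genes at 50 FPKM or more.

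**Figure D4:**
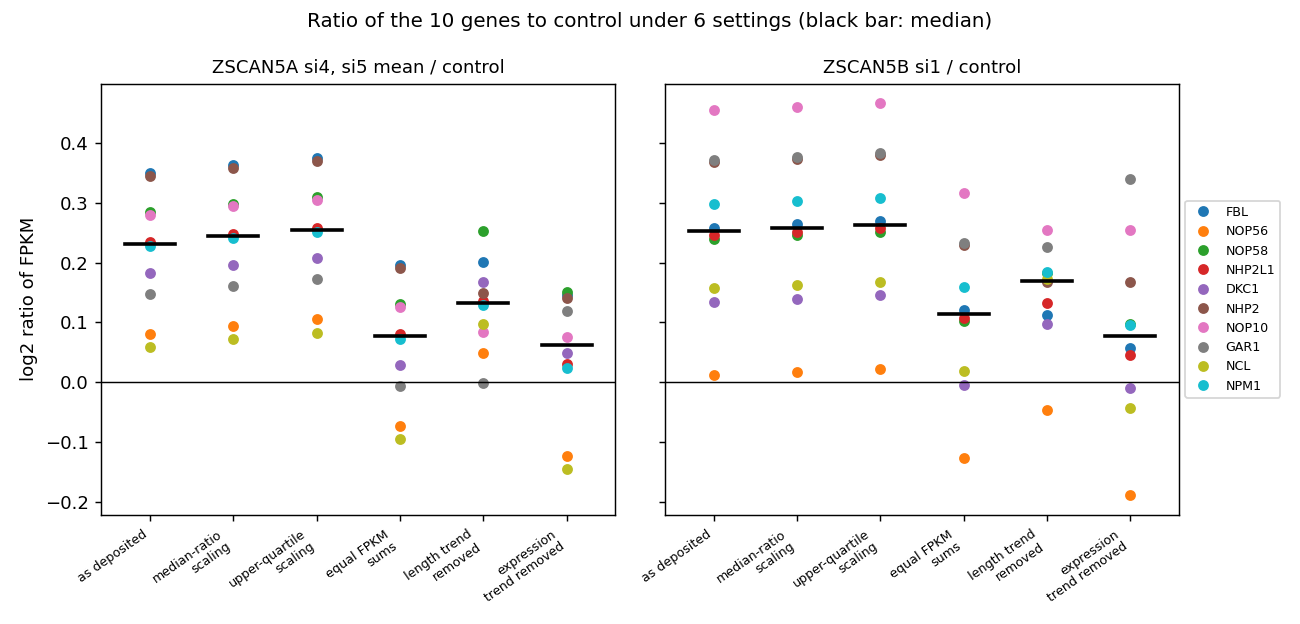
Log2 ratio of FPKM to the control for the 10 genes under 6 settings, from the values as deposited to the values with the trend by expression level removed, with the median as a black bar. The first 3 settings keep all 10 genes above 0 in both comparisons, and the last 3 lower the medians to between 0.062 and 0.17 and put up to 3 genes of the 10 below 0.

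Both types of guide RNA are encoded inside the 10 genes. The table held 13 snoRNA genes (9 C/D and 4 H/ACA) and 1 microRNA gene within NOP56, NOP58, DKC1 and NCL. The examples below, picked among genes with an exact match, show boxes on which the core proteins assemble. SNORD57 lies in intron 10 of 11 of NOP56 (chr20:2637585-2637656, plus strand, hg19) and SNORD20 in intron 11 of 13 of NCL (chr2:232321155-232321234, minus strand). In these capitals mark the C box (TGATGA) and the D box (CTGA). SNORD86, SNORD56 and SNORD70 hold no exact TGATGA and are not shown. SNORA56 lies in intron 12 of 14 of DKC1 (chrX:154003273-154003401, plus strand), and SNORA75 in intron 12 of 13 of NCL (chr2:232320511-232320647, minus strand). In these capitals mark the last ACA of the annotated sequence, taken as the ACA box, and the H box was not marked.
SNORD57: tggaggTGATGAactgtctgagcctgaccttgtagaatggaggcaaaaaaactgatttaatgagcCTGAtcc
SNORD20: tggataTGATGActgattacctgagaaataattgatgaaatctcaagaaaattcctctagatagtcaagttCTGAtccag
SNORA56: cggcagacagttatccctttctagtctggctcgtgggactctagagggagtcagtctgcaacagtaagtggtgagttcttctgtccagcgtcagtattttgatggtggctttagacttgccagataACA
SNORA75: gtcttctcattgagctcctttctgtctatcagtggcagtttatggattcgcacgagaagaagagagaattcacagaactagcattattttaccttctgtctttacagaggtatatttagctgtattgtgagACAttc

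Of these 14 genes, 11 were listed at 0 in every library, SNORD57 and SNORD20 among them. SNORA51, in an intron of NOP56, was at 0 with both ZSCAN5A siRNAs, 4.22 FPKM with si1 and 8.58 in the control. SNORA56 was at 4.43, 12.5 and 9.51 with si4, si5 and si1 and 4.83 in the control. SNORA75 was at 2.30 with si5, 3.56 in the control and 0 in the other libraries. The smallest whole numbers in the proportions of these values, taken as fragments, were at most 4 in any library, and no ratio is given. The libraries were made for mRNA, and the level of the guides themselves was not measurable at this count.

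Promoter sequences from RefSeq (GRCh38.p14, 250 bases before to 50 after the start of the gene) were found for 8 of the 10 genes, in 10 entries. NOP58 and NHP2L1 were not matched. Because the 10 genes lay on 1 side of the control together, these windows were searched on both strands for the E-box CACGTG, to which MYC can bind, for the ETS site CCGGAAG and for the B box of genes transcribed by RNA polymerase III. The E-box and the ETS site share no letters in these windows. The promoters of FBL (chr19:39846330-39846629, minus strand) and NOP10 (chr15:34343087-34343386, minus strand) are shown because they alone hold both the E-box and the ETS site, which are in capitals.
FBL: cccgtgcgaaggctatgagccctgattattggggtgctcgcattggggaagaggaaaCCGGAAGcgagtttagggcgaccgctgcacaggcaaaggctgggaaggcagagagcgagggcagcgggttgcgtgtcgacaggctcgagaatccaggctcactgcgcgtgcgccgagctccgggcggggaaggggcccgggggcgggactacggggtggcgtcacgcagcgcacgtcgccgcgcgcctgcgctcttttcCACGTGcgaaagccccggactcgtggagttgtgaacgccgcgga
NOP10: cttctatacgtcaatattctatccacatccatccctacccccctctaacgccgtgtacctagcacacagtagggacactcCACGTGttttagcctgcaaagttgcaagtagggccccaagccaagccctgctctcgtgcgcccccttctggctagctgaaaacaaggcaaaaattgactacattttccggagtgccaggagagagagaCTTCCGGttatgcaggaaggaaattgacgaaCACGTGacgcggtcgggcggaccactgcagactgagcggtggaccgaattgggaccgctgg

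In FBL the E-box begins 6 bases after the start and the ETS site begins at -193. NOP10 has an E-box at -170 and another at -11, and an ETS site at -42 that reads on the opposite strand. GAR1 has an E-box in one of its 2 entries and an ETS site in the other. An E-box was thus held by 3 of 10 entries, against 7.26% of 35116 promoters of this length, and an ETS site by 3 of 10, against 10.3%. The B box was in none of the 10 entries and in 0.185% of all. FBL had the highest log2 ratio of the 10 genes in the ZSCAN5A comparison and NOP10 with si1, but neither was highest in the other comparison. NHP2, whose entry holds neither site, was at 0.35 for ZSCAN5A and 0.37 with si1. GAR1 was at 0.15 for ZSCAN5A and 0.37 with si1. Whether the ratios follow these sites was not tested. A match describes letters in a window and is no measure of binding.

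MYC itself, a transcription factor that promotes ribosome production, was at 19.5 FPKM in the control and 25.2 with si1, and at 20.4 and 16.8 with si4 and si5. It lay on both sides of the control with the ZSCAN5A siRNAs and above it with si1. Of the 11 genes of the MYC network, 1 was higher in all 3 siRNA libraries, against 30.1% of all genes, and none was past 1.5-fold. That gene was MXD3, a partner of MAX, at 31.3, 31.9 and 28.2 against 25.9 FPKM. MNT, a repressor that competes with MYC for MAX, was at 3.41, 3.28 and 3.41 against 4.32.

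Relatives of the core proteins were compared next. FBLL1, a fibrillarin-like gene at low level, was at 3.75 FPKM with si4, 2.90 with si5 and 2.13 with si1, against 1.69 in the control. The mean of the ZSCAN5A siRNAs was past 1.5-fold (log2 ratio 0.98), also against si1 (0.64), while the si1 ratio was 0.34. It was the single gene of the 5 relatives past that limit. Of the 5, 4 were higher in all 3 siRNA libraries, against 30.1% of all genes, the exception being NPM2 at 0.947 to 1.22 FPKM.

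Assembly of the particles needs the R2TP complex, a chaperone with the ATPases RUVBL1 and RUVBL2, and other factors that work partly in Cajal bodies. The list of 16 such genes gave 17 rows, since SMN1 stands on 2 rows whose reads may be shared with its near-identical copy. Of these, 12 were higher in all 3 siRNA libraries, against 30.1% of all genes and 66.4% of those at 50 FPKM or more. None was past 1.5-fold, and the medians were 0.11 for ZSCAN5A and 0.15 with si1. RUVBL2 had the highest ratio in the averaged ZSCAN5A and in the si1 comparison, at 154, 148 and 159 FPKM against 117, although with si4 alone RUVBL1 and 1 row of SMN1, and with si5 alone PIH1D1, were above it. NUFIP1, which brings NOP58 and NHP2L1 together, went the other way, at 3.78, 3.19 and 3.63 FPKM against 4.65.

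The U3 snoRNP is a C/D particle needed for cleavage of the ribosomal RNA precursor rather than for its modification, as part of the small subunit processome. Of 33 genes of this group, 23 were higher in all 3 siRNA libraries, against 30.1% of all genes and 66.4% of those at 50 FPKM or more. The medians were 0.16 and 0.21, and none was past 1.5-fold in either comparison. EMG1, a methyltransferase of 18S ribosomal RNA, had the highest ZSCAN5A ratio, at 37.0 FPKM with si4 and 28.7 with si5 against 23.7, and DCAF13 had the highest si1 ratio, at 21.4 against 15.0. WDR36 had the lowest ZSCAN5A ratio, at 9.21 and 11.7 FPKM against 10.3, on both sides of the control.

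Of 24 genes of large subunit assembly and the nucleolus, 21 were higher in all 3, against 30.1% of all genes and 66.4% of those at 50 FPKM or more. The medians were 0.23 and 0.30, and none was past 1.5-fold in either comparison. With si4 alone NOP16 and RRS1 were past it. NOP16 was at 29.6, 22.1 and 25.1 FPKM against 18.8, and NIP7 at 18.8, 17.6 and 22.7 against 16.4. RRP1B, at 33.9, 29.6 and 32.1 against 32.4, was on both sides of the control. The medians of the 10 snoRNP and nucleolar genes were 0.23 and 0.25, and no test of a difference between lists was made.

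**Figure D5:**
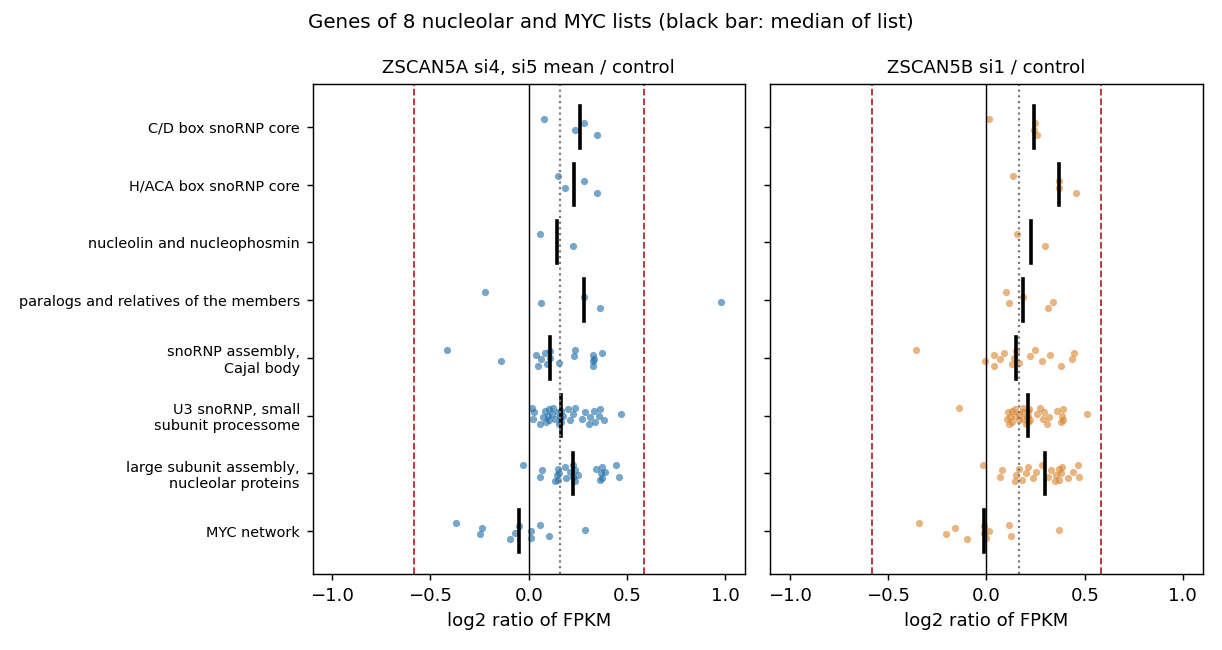
Log2 ratio of FPKM to the control for genes of 8 lists, 1 point per gene, with the ZSCAN5A siRNAs on the left and si1 on the right, the median of each list as a black bar, 1.5-fold as dashed lines and the median of genes at 50 FPKM or more as a dotted line. The medians of the 3 lists of core genes lie between 0.14 and 0.37, FBLL1 is the single point past 1.5-fold, and the MYC network has medians of -0.048 and -0.011.

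DKC1, NHP2, NOP10 and GAR1 also bind the telomerase RNA. TERT, the catalytic subunit, was at 0.912, 0.857 and 0.967 FPKM against 1.09. TERC, the RNA, stood on an estimated 5, 4, 4 and 1 fragments, the smallest whole numbers in its proportions, too few for a ratio in an mRNA library. PARN, a nuclease that trims the ends of TERC and H/ACA RNAs, was at 25.0, 21.2 and 24.4 FPKM against 22.7.

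The mean profile of the 10 genes over the 4 libraries, on log2 FPKM centred for each gene, was 0.070, 0.021, 0.081 and -0.17 for si4, si5, si1 and the control. NHP2L1 was the member closest to it (root mean square difference 0.030) and NOP10 the farthest (0.089). Among 1350 other genes at 50 FPKM or more, whose median difference from the profile was 0.081, the nearest 5 were FKBP3, NAA20, CYB5A, PAPOLA and ATP5O, at 0.0032 to 0.0092. They encode a prolyl isomerase, a subunit of an acetyltransferase, cytochrome b5, poly(A) polymerase and a subunit of the mitochondrial ATP synthase. FKBP3 was at 116, 112 and 117 FPKM with the siRNAs against 97.4 in the control. With 4 libraries, such likeness is a description.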

How the data were processed

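HEK-293 cells were profiled by RNA-seq with 1 library per siRNA. Per the labels, the authors used CASAVA 1.8.2, Trimmomatic 0.30, TopHat2 2.1.0 and Cufflinks 2.2.1 on hg19, and deposited 1 table of FPKM values. Labels and methods name different kits, both stranded and for mRNA. The table held 0 other columns of per-sample values. FPKM values were used as deposited, with no pseudocount. Ratios were called past 1.5-fold in either direction where a library of the comparison reached 1 FPKM and neither side was at 0, after the limits in the study's methods. The adjusted p-value that the methods add for ZSCAN5A was not part of the main rule.

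The genes and lists were chosen with earlier results of these data known. Named genes were the 10 members, the targeted genes, MYC, called or extreme genes of each list, expressed genes inside members and the 5 nearest profiles. FBLL1 and FCF1 entered by that rule.

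Depth came from 1745 genes under 0.1 FPKM, of which 70.0% had 4 values in whole-number proportions (no number above 40, tolerance 0.05%), taken as fragments and scaled by the lengths of 1015 genes. Exact Clopper-Pearson 95% intervals rest on these estimates and cover counting error only. A control of 3 fragments or fewer was the floor.

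Lengths and introns came from GENCODE on GRCh37, with a length for 94.2% of the genes tested. Alternatives covered scaling, pseudocounts, limits, rows sharing a symbol, trends by level and length in 20 bins, single siRNAs and limma 3.58.1 in R 4.3.3. Equal FPKM sums and the count of genes whose gap exceeds the siRNA range were added after seeing the data. The fold rule and limma were tested on simulated data. Python 3.11.15, NumPy 2.4.6, pandas 2.3.3, SciPy 1.17.1 and matplotlib 3.10.9 were used.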

Additional observations from a re-analysis of the deposited data

Results flagged for a closer look

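FCF1, a nuclease-domain protein of the small subunit processome, was at 20.6 FPKM with si4 and 20.3 with si5, above the control at 18.2, and at 16.5 with si1, below it. Its log2 ratio was 0.17 and 0.16 with the ZSCAN5A siRNAs and -0.14 with si1, so the ZSCAN5A siRNA libraries and the library labelled ZSCAN5B knockdown lay on opposite sides of the control. The difference was not tested.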

How the results depend on the processing

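The count of 0 genes past 1.5-fold was the same under every alternative except a fold limit of 25% above the control (or the inverse), which gave 2 genes for ZSCAN5A (FBL and NHP2) and 3 with si1 (NHP2, NOP10 and GAR1). Over all genes, 668 were higher and 1736 lower past that limit out of 12993 for ZSCAN5A. With si1 these were 866 and 1656 out of 12921. The median log2 ratio, 0.23 and 0.25 for ZSCAN5A and si1, was 0.062 and 0.077 with the expression trend removed, 0.13 and 0.17 with the length trend removed, and 0.076 and 0.11 with equal FPKM sums. All 10 genes were above the control in the 3 siRNA libraries under median-ratio and upper-quartile scaling, 8 with the length trend removed, 6 with equal sums and 5 with the expression trend removed. The 7 genes with a gap over the control larger than the siRNA range stayed 7 under the first 2 scalings and became 2 with equal sums. With each ZSCAN5A siRNA singly the median was 0.16 to 0.26 against the control and -0.086 to 0.047 against si1, with 0 genes past 1.5-fold. Of 220 log2 ratios of single genes under alternatives, 208 were above 0 and 12 below, all with equal sums or with a trend removed, GAR1 for ZSCAN5A (-0.0015) and NOP56 with si1 (-0.046) being those with the length trend removed. The other expression limits and the summing of rows that share a symbol left these ratios unchanged, and the pseudocounts nearly so. The 220 ratios are therefore not separate checks. Over all genes, 88 were higher and 404 lower past 1.5-fold for ZSCAN5A (109 and 409 with si1), which became 48 and 959 (68 and 893) with equal sums and 148 and 238 (143 and 251) with the expression trend removed. They were 82 and 168 (84 and 178) with a pseudocount of 1, 30 and 75 (37 and 101) at 10 FPKM, 763 and 1749 (888 and 1476) with no expression limit, 65 and 254 (65 and 277) with the length trend removed, 668 and 1736 (866 and 1656) at the lower and 23 and 50 (25 and 42) at a 2-fold limit, and 149 and 673 for si4 alone, while limma called 10 genes in each comparison. Between the ZSCAN5A siRNAs and si1, 81 and 88 became 115 and 215 with si4 alone, 753 and 1231 with no expression limit, 29 and 26 at 10 FPKM, 64 and 48 with the length trend removed, and 372 and 468 or 15 and 26 at the other fold limits. The causes were not tested. No paired analysis was possible, with 1 library per siRNA and no label that pairs libraries. Depth limits GAR1, whose intervals are the widest of the 10 genes, and leaves the snoRNAs and TERC uncounted. The intervals of NOP56 with si1 (0.987 to 1.03) and NCL with si5 (0.995 to 1.01) are narrow and include no difference.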
